A study of Homo sapiens with 6 samples.

Results

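Peaks in introns after the first were the places inside pre-mRNA, away from the first intron, where RNA recovered with the helicase DDX5 was called as enriched. The extracts were nuclear and came from RH30, a cell line of alveolar rhabdomyosarcoma, a childhood muscle-lineage cancer, that is positive for the fusion of PAX3 with FOXO1. The 6 samples are 3 immunoprecipitates with a DDX5 antibody (DDX5_IP, replicates 1 to 3) and 3 INPUT samples with no antibody, all from RH30 cells. One peak list of each DDX5_IP sample was used, and the INPUT samples were not analysed here. The library kit did not keep the strand, so a peak in an intron can come from the gene or from a transcript of the opposite strand. A peak entered when its summit lay in intron 2 or later of a canonical protein-coding transcript, in no annotated exon of any gene and in no first intron of another canonical transcript. These rules kept 11788 of 93198 peaks, which are called later-intron peaks here. They numbered 1821 of 23715 peaks in replicate 1, 4786 of 23651 in replicate 2 and 5181 of 45832 in replicate 3.

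Introns are copied into the pre-mRNA with the exons and are removed by the spliceosome, often while the gene is still being transcribed. A nuclear extract therefore holds partly spliced RNA as well as finished mRNA. DDX5 is a DEAD-box RNA helicase that remodels RNA structure, acts in the regulation of splicing and is a cofactor of the Microprocessor, the complex that cuts microRNA hairpins out of their host transcripts, which often are introns. Short introns are usually recognised by pairing of their own ends, and exons between long introns by pairing across the exon.

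The sequences at the summits show the 2 kinds of place that later-intron peaks took. The first set comes from the interior of introns: 5 of the 6 highest-ranked regions with a later-intron peak in every list, ranked by the mean percentile of the best −log10 q. Each window holds 50 bases on each side of the best summit (GRCh38/hg38, read on the strand of the gene), and the capitals mark the summit with 5 bases on each side.
COPG2, chr7:130520054-130520154, minus strand: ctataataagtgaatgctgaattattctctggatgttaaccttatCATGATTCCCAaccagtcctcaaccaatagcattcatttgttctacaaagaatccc
ATRNL1, chr10:115172044-115172144, plus strand: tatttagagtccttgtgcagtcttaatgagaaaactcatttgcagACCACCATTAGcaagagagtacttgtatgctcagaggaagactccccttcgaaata
COPG2, chr7:130513403-130513503, minus strand: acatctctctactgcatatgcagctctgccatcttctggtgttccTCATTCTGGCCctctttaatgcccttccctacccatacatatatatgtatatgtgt
ZNF85, chr19:20943947-20944047, plus strand: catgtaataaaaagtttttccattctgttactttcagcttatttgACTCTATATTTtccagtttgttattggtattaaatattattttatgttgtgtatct
PSMB7, chr9:124357422-124357522, minus strand: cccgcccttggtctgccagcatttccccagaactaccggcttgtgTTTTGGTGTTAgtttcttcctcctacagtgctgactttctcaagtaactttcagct
The COPG2 windows all lie in 1 intron, and the PSMB7 window lies 557 bases from the nearer end of intron 6. The ZNF85 window holds 31 bases that are exon in another annotated transcript, and that of PSMB7 holds no annotated exon base although its interval reaches one. In the split by contact to an exon used below, the PSMB7 peaks touch an exon in every list. The ZNF85 peak does so in replicate 3 only.

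The second set shows the other kind of place, at the border of an exon. These are 3 of the 4 highest-ranked regions found in every list whose peaks touched an annotated exon in each list and whose window holds part of it, and the capitals mark annotated exon. This selection was made after the data were seen.
CALR, chr19:12943652-12943752, plus strand: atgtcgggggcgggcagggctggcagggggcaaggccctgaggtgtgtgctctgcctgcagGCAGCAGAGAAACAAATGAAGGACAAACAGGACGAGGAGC
LNPK, chr2:175964413-175964513, minus strand: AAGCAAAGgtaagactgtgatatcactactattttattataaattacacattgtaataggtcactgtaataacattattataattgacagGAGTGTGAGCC
ARHGEF40, chr14:21073237-21073337, plus strand: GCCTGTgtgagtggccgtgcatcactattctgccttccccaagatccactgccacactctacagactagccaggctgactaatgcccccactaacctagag
In CALR, LNPK and ARHGEF40 the summit lay in the intron within 11, 40 and 45 bases of the exon. The introns of CALR and LNPK are 83 and 82 bases long, so these windows are longer than the introns.

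Later introns held a modest and uneven share of the peaks. The share was 7.68%, 20.2% and 11.3% of the list in replicates 1, 2 and 3, and averaged 13.1% ± 6.46 (SD, n = 3). First introns held 1.60%, 6.50% and 2.14%, and exons of protein-coding genes 82.1%, 59.7% and 78.4%. Replicate 2 had the highest share in both kinds of intron and the lowest in exons. The peaks lay in 1524, 3579 and 4332 introns of 1017, 2320 and 2470 genes, and 24, 81 and 77 of them lay inside several overlapping canonical transcripts and so were given to no single intron. Of the genes, 65.2%, 59.7% and 58.2% had a single later-intron peak, and 86.3%, 64.2% and 86.8% also had a summit in an exon in the same list. How deeply the libraries were sequenced is unknown, which leaves the length of each list without a scale.

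The peaks were short, and their fold enrichments were somewhat above those of all peaks. Their median width was 165, 182 and 169 bp, and their median fold enrichment over the authors' background was 2.89, 3.40 and 3.07 in replicates 1, 2 and 3, against 2.66, 3.21 and 2.91 for all peaks. The highest fold enrichments were 15.1, 21.5 and 16.9. A q under 1e-05 was reached by 32.9%, 46.1% and 43.0% of later-intron peaks, against 44.9%, 53.0% and 55.8% of all peaks of these lists. In 74.4%, 80.3% and 84.3% of later-intron peaks at least 10 peaks of the list had the same fold and the same p, against 53.7%, 61.0% and 68.0% of all peaks, so many of these folds take few distinct values. The control library of the peak calls is not stated, and a fold enrichment can therefore carry the abundance of the RNA.

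The later-intron peaks were of 2 kinds, and the lists mixed them differently. In the first kind the summit was intronic but the interval reached an annotated exon. This kind made up 64.0%, 18.6% and 54.9% of later-intron peaks in replicates 1, 2 and 3, or 1166, 892 and 2842 peaks. The other kind, whose interval touched no exon, numbered 655, 3894 and 2339. Among first-intron peaks the share that touched an exon was lower in every list, at 22.96%, 6.05% and 16.2%, a mean difference of 30.8 percentage points ± 15.8 (SD, n = 3, exact two-sided sign-flip permutation test, p = 0.25). That p is the smallest that 3 lists can give, so no comparison over these lists can pass 0.05. The lists of replicates 1 and 3 held mostly peaks at exon borders, and that of replicate 2 mostly peaks inside introns.

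**Figure D1:**
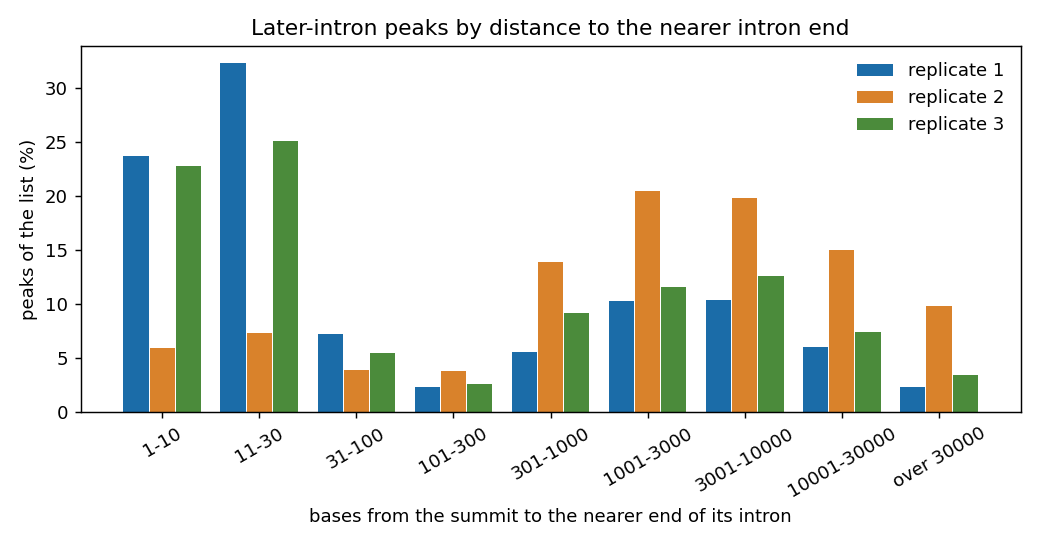
Share of later-intron peaks (vertical axis, percent of the list) by the number of bases from the summit to the nearer end of its intron (horizontal axis, classes of unequal width). Bars are the 3 DDX5_IP lists. Replicates 1 and 3 have 63.3% and 53.3% of their peaks within 100 bases of an end, and replicate 2 has 65.2% more than 1000 bases from both ends.

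Summits crowded at intron ends. Within 100 bases of either end lay 63.3%, 17.1% and 53.3% of the summits in replicates 1, 2 and 3, against 8.29%, 5.28% and 6.89% expected if the peaks were spread evenly over the eligible later-intron bases of the same genes. The log2 ratio of observed to expected was 2.53 ± 0.72 (SD, n = 3) and was above 0 in 3 of 3 lists (exact sign-flip permutation test, p = 0.25). Taken alone, peaks that touched no exon fell short, with 2.77%, 1.02% and 1.13% against 4.63%, 3.77% and 4.37% expected. The split itself keeps those summits from intron ends. The plot of distances has its first peak within 30 bases, with 23.8%, 5.95% and 22.8% of summits at 1 to 10 bases and 32.3%, 7.29% and 25.1% at 11 to 30 bases. From 101 to 300 bases the share was down to 2.28%, 3.78% and 2.57%. Both ends were represented, with 34.6%, 9.27% and 26.3% of summits within 100 bases of a 5′ end (the splice donor side) and 35.5%, 10.4% and 31.2% within 100 bases of a 3′ end (the acceptor side).

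The peaks that touched an exon sat astride exon borders, which follows from their definition. Their summits were a median of 14, 18 and 13 bases into the intron. Only the upstream exon was reached by 45.8%, 36.5% and 41.9% of them, only the downstream exon by 47.3%, 46.6% and 51.4%, and both by 5.41%, 8.73% and 4.65%. The remaining 1.57%, 8.15% and 2.07% reached an exon of another transcript or gene. Of those that reached a flanking exon, 44.1%, 45.9% and 60.9% contained that exon whole. The reached exons had a median length of 141, 124.5 and 105 bases, against 126 bases for all exons that flank later introns, and exon sequence made up a median of 63.8%, 56.0% and 57.5% of the interval. A summit a few bases into an intron was thus, in most of these peaks, the high point of an interval made up mainly of exon. Of their genes, 94.0%, 85.6% and 96.0% also had a summit inside an exon in the same list.

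The peaks that touched no exon lay deep in long introns. Their summits were a median of 3050, 3700 and 3207 bases from the nearer end in replicates 1, 2 and 3, and 78.3%, 79.0% and 75.8% of them were more than 1000 bases from both ends. The intron that held them had a median length of 16349, 18886 and 14599 bases, against 1453 bases over all 167877 later introns. Of their genes, 73.6%, 60.3% and 78.8% also had an exonic summit in the same list. Their median fold enrichment was 3.25, 3.53 and 3.25, against 2.73, 3.11 and 2.90 for the peaks that touched an exon, higher in 3 of 3 lists by a mean of 0.427 ± 0.0889 (SD, n = 3, exact sign-flip permutation test, p = 0.25).

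Within these introns the peaks thinned out toward the 3′ end. The first 20% of the intron, counted from its 5′ end, held 26.8%, 21.8% and 21.8% of the peaks that touched no exon, and the last 20% held 10.2%, 14.6% and 12.3%. The last 20% was the poorest stretch in every list, as the plot of position in the intron shows. This comparison was made after the data were seen and was not tested. It takes each intron as a whole, although annotated exons of other transcripts inside it could hold no such peak.

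**Figure D2:**
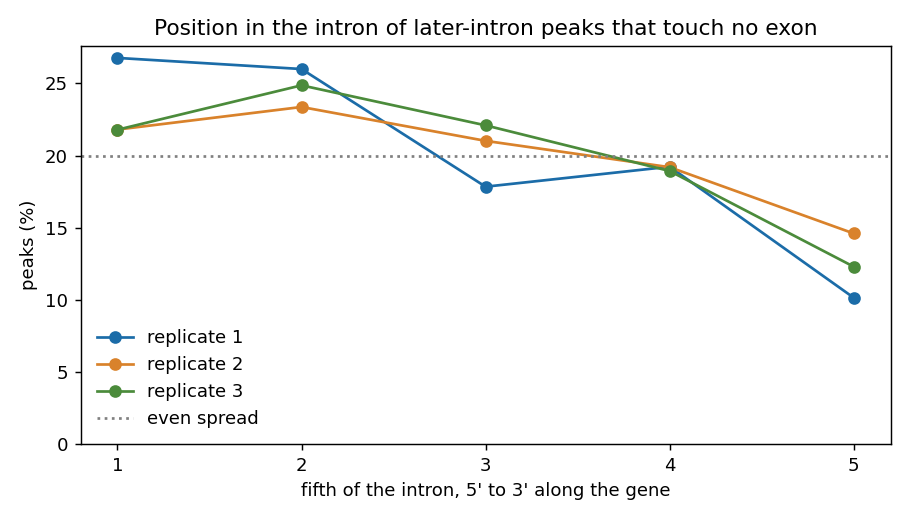
Share of the later-intron peaks that touched no exon (vertical axis, percent of the list) in each successive 20% of the intron, 5′ to 3′ along the gene (horizontal axis). Lines are the 3 DDX5_IP lists and the dotted line is an even spread at 20%. All lists lie below that line at the 3′ end.

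Intron length separated the kinds as well. Of all later-intron peaks, 25.04%, 8.48% and 20.1% lay in introns under 1 kb, against 9.94%, 5.73% and 7.88% expected from the eligible bases of the same genes, a log2 ratio of 1.08 ± 0.45 (SD, n = 3, 3 of 3 lists above 0, exact sign-flip permutation test, p = 0.25). The peaks that touched an exon carried this, with 37.3%, 40.1% and 34.7% in introns under 1 kb, against 12.8%, 15.8% and 10.8% expected, a log2 ratio of 1.52 ± 0.17 (SD, n = 3). These peaks are bound to exon borders by definition, so an excess over a share of bases follows from the split and shows no preference for short introns. By number, 40.1% of all later introns are under 1 kb, near the observed shares. Without them the direction turned, to 3.38%, 1.30% and 2.43% against 4.84%, 3.44% and 4.39% expected, a log2 ratio of −0.92 ± 0.45 (SD, n = 3, exact sign-flip permutation test, p = 0.25). An interval inside a short intron has little room to miss both exons, so this turn follows in part from the split itself.

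In the longer classes the peaks that touched no exon were near the share of the eligible bases. Introns of 1 to 5 kb held 19.8%, 18.8% and 22.1% of them, against 22.9%, 20.1% and 22.2% expected, a little less in every list. Introns of 5 to 20 kb held 30.3%, 31.2% and 33.2% of them, against 30.5%, 29.3% and 31.5% expected. Introns of 20 to 100 kb held 34.0%, 33.2% and 31.9%, against 31.6%, 33.2% and 31.6% expected. Introns of 100 kb or more held 12.5%, 15.5% and 10.3%, against 10.2%, 13.9% and 10.3% expected. The mean log2 ratios of the classes from 5 kb upward were 0.05 ± 0.05, 0.04 ± 0.06 and 0.15 ± 0.14 (SD, n = 3), each within or near its spread between lists. That of 100 kb or more was above 0 in every list (exact sign-flip permutation test, p = 0.25). The longest intron with such a peak had 1240120 bases and the shortest 109 bases. Peaks that touched an exon were short of the expectation in introns of 20 to 100 kb, with 3.66%, 3.90% and 4.22% against 13.9%, 13.9% and 16.2%. That too follows from their place at exon borders, since introns of this class are 3.90% of later introns by number.

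**Figure D3:**
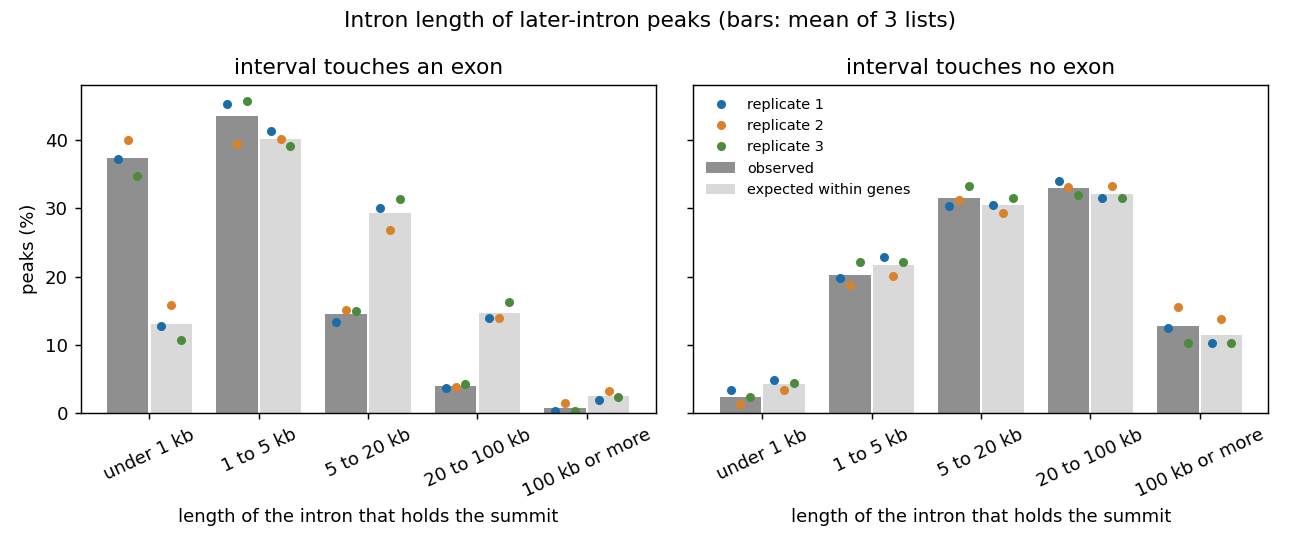
Share of later-intron peaks (vertical axis, percent) by the length of the intron that holds the summit, for peaks that touch an exon and peaks that do not. Dark bars are the observed share and light bars the share expected from the eligible bases of the same genes, as means of the 3 DDX5_IP lists, with the lists as points. Observed bars exceed expected ones under 1 kb in peaks that touch an exon and fall short of them in peaks that do not.

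The last intron, the one before the exon that usually holds the stop codon and the polyadenylation site, had slightly more than its share. It held 9.02%, 10.5% and 7.70% of later-intron peaks (162, 494 and 393 peaks), against 8.20%, 9.12% and 7.33% expected within the same genes. The log2 ratio was 0.14 ± 0.07 (SD, n = 3), above 0 in 3 of 3 lists (exact sign-flip permutation test, p = 0.25). When peaks that shared their fold and p with others were dropped it was 0.45 ± 0.11 (SD, n = 3). Set against the later introns of all genes it was 0.09 ± 0.22 (SD, n = 3), with 2 of 3 lists above 0. In peaks that touched no exon it was 0.23 ± 0.03 (SD, n = 3), with 13.5%, 11.4% and 10.8% against 11.7%, 9.80% and 8.95% expected. In peaks that touched an exon it was −0.0231 ± 0.17 (SD, n = 3). Among genes that also had an exonic summit in the list the log2 ratio over all later-intron peaks was −0.0165 ± 0.104 (SD, n = 3), so the direction did not hold there. Last introns are a little shorter than the others in the annotation, with medians of 1406.5 and 1460 bases, while the last introns that held a peak had medians of 4576.5, 12465.5 and 6082 bases.

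Replicates shared later-intron peaks less often than exonic ones. A later-intron peak touched a peak of both other lists in 24.4%, 8.48% and 4.15% of cases in replicates 1, 2 and 3, against 37.7%, 37.1% and 18.4% of all peaks of those lists. Exonic peaks did so in 40.7%, 55.0% and 21.5%. The difference between later-intron and exonic peaks was −26.7 percentage points ± 17.1 (SD, n = 3), below 0 in 3 of 3 lists (exact sign-flip permutation test, p = 0.25). With fold enrichments of at least 4 it was −10.8, and with reciprocal overlap of 50% it was −12.6 percentage points. First-intron peaks did so in 21.9%, 4.55% and 5.61%, and later-intron peaks differed from them by 1.65 percentage points ± 2.79 (SD, n = 3), higher in replicates 1 and 2 and lower in replicate 3 (exact sign-flip permutation test, p = 0.5). Leaving out replicate 3 gave −1.68 percentage points, but support then meant contact to the only other list left, which is another measure. Replicate 3 has the longest list, and with lists of equal length the difference was 0.0461 percentage points. In replicates 1, 2 and 3, 30.3%, 77.2% and 79.6% of later-intron peaks touched no peak of another list. The shares were 41.4%, 84.5% and 77.7% for first-intron peaks and 19.3%, 14.4% and 49.9% for exonic peaks.

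**Figure D4:**
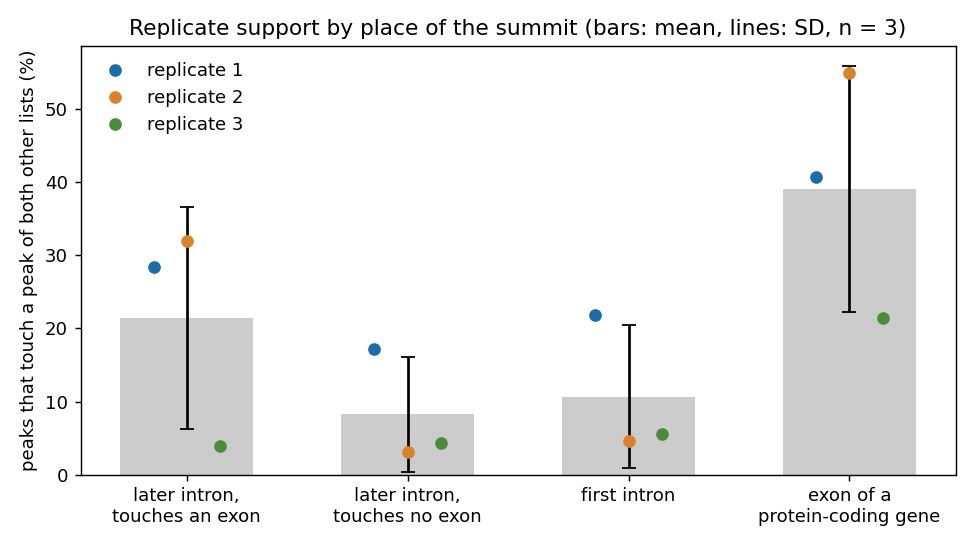
Share of peaks that share at least 1 bp with a peak of both other lists (vertical axis, percent), by place of the summit: later introns with and without contact to an exon, first introns, and exons of protein-coding genes. Bars are means, lines the SD and points the 3 DDX5_IP lists. Exonic peaks are the highest of the 4 classes in every list.

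The support of the 2 kinds came from different peaks. Peaks that touched an exon met both other lists in 28.4%, 32.0% and 3.98% of cases, and peaks that did not in 17.3%, 3.11% and 4.36%, with the lower value for the peaks at exons in replicate 3. When a peak at an exon met a peak of another list, that peak was in 45.1% to 76.4% of cases an exonic one and not a later-intron peak, over the 6 ordered pairs of lists. When a peak that touched no exon met a peak of another list, it was a later-intron peak in 96.8% to 99.5% of cases, which follows in large part from the split. The summit of such a shared place at an exon border lay in the intron in one list and often in an exon in another. The support of peaks that touched no exon was lower than that of first-intron peaks in 3 of 3 lists, by 2.45 percentage points on average (difference −2.45 ± 1.91, SD, n = 3, exact sign-flip permutation test, p = 0.25).

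Among the peaks that touched no exon, those in the longest introns had the least support. In introns of 100 kb or more, 4.94%, 0.673% and 1.68% of them met both other lists in replicates 1, 2 and 3. The shares were 20.9%, 2.91% and 3.92% in introns of 1 to 5 kb, 16.2%, 2.42% and 3.78% in those of 5 to 20 kb and 19.0%, 4.64% and 6.24% in those of 20 to 100 kb. Among these 3 classes the share was lowest at 5 to 20 kb in every list, and it was highest at 1 to 5 kb in replicate 1 and at 20 to 100 kb in replicates 2 and 3. The class of 20 to 100 kb, with 221, 1271 and 737 such peaks, includes intron 20 of COPG2. That intron alone held 21, 29 and 25 later-intron peaks, counted with or without contact to an exon, and 12 regions found in every list. Its part in the support of this class was not tested. In last introns 23.9%, 4.81% and 6.02% of the peaks that touched no exon met both other lists, against 16.0%, 2.88% and 4.13% in the other later introns, higher in every list.

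Merged across the lists, the later-intron peaks formed 10641 regions, of which 138 (1.30%) had a later-intron peak in every list, 779 in 2 lists and 9724 in 1. Of the 138, 92 touched no exon in any list with their best peaks, 29 touched one in every list and 17 were mixed. They lay in 101 genes, and 84 genes had a single such region. Last introns held 24 of them, or 17.4%, and 24 of 126 (19.0%) without COPG2. Of all later-intron peaks, 9.02%, 10.5% and 7.70% lay in last introns in replicates 1, 2 and 3. The difference between regions and peaks was not tested. COPG2 had 12 regions, LRP1 5, ATRNL1 and PSMB7 4 each and TNS3 3. The summits of the 3 lists lay a median of 104 bases apart within a region, and in 19 regions they lay within 20 bases. Of 8054 introns with a peak in any list, 186 (2.31%) had one in every list, and of 3740 genes 483 (12.9%) did.

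COPG2, which encodes a gamma subunit of the COPI coat of Golgi transport vesicles, had the most concentrated set of peaks. It held 21, 30 and 28 later-intron peaks in replicates 1, 2 and 3, the highest mean share of any gene. Of these, 21, 29 and 25 lay in intron 20 of 23, which is 39014 bases long. They covered 67.3%, 29.4% and 54.1% of that intron, with median fold enrichments of 4.26, 2.19 and 2.57. The annotation places the non-coding gene COPG2IT1 on the opposite strand in this intron, and strand was not kept, so the peaks cannot be given to one of the transcripts. The highest-ranked region spanned 4792 bases (chr7:130518299-130523090), with best fold enrichments of 4.90, 3.03 and 3.30 in replicates 1, 2 and 3. Its summits lay 3969 bases apart, so it is a stretch of enriched RNA and not 1 place. In the third-ranked region (chr7:130513369-130514746) the fold enrichments were 4.71, 2.98 and 2.70 and the summits lay within 15 bases.

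ATRNL1 and ALMS1 had the same form, many peaks in 1 intron. ATRNL1, which encodes an attractin-like membrane protein, held 14, 10 and 19 later-intron peaks, of which 14, 6 and 13 lay in intron 8 of 28. Its best region there (chr10:115171592-115174898), 802 bases from the nearer end, had fold enrichments of 9.58, 6.43 and 12.3 in replicates 1, 2 and 3, among the 12 named regions exceeded on average only by ZNF85. The summits of the lists in that region lay up to 473 bases apart. ALMS1, a gene of a centrosomal and ciliary protein mutated in Alström syndrome, held 10, 9 and 22 peaks, of which 10, 5 and 19 lay in intron 16 of 22. The peaks of ATRNL1 touched no exon in 14 of 14, 10 of 10 and 18 of 19 cases.

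ASTN2 had its peaks spread over many introns. This gene, which encodes astrotactin 2, a neuronal membrane protein, held 11, 48 and 27 later-intron peaks in 5, 11 and 10 introns. Nearly all touched no exon (10, 47 and 24), and its eligible later-intron sequence amounts to 786 kb. The gene ENSG00000285471 on chromosome 17 held 8, 17 and 13 peaks, all without contact to an exon. In TNS3, the gene of the focal adhesion protein tensin 3, there were 11, 8 and 8, of which 9, 8 and 5 touched no exon.

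NEB, HUWE1 and UTRN showed the other form, single peaks at many exons. NEB encodes nebulin, the giant protein of the muscle thin filament, and held 14, 10 and 30 later-intron peaks in 13, 10 and 29 introns. All but 1, 2 and 0 of them touched an exon. The ubiquitin ligase gene HUWE1 held 9, 12 and 11 in 8, 12 and 11 introns, with 1, 4 and 2 that touched no exon. For UTRN, the gene of utrophin, a relative of dystrophin, the counts were 7, 8 and 21 in 6, 6 and 18 introns, and 3, 7 and 3 touched no exon, so replicate 2 differed in kind. LRP1, which encodes an endocytic receptor of lipoproteins, held both kinds, with 14, 18 and 10 peaks of which 5, 10 and 7 touched no exon. LRP1 lies in a part of chromosome 12 that is known to be amplified in RH30.

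**Figure D5:**
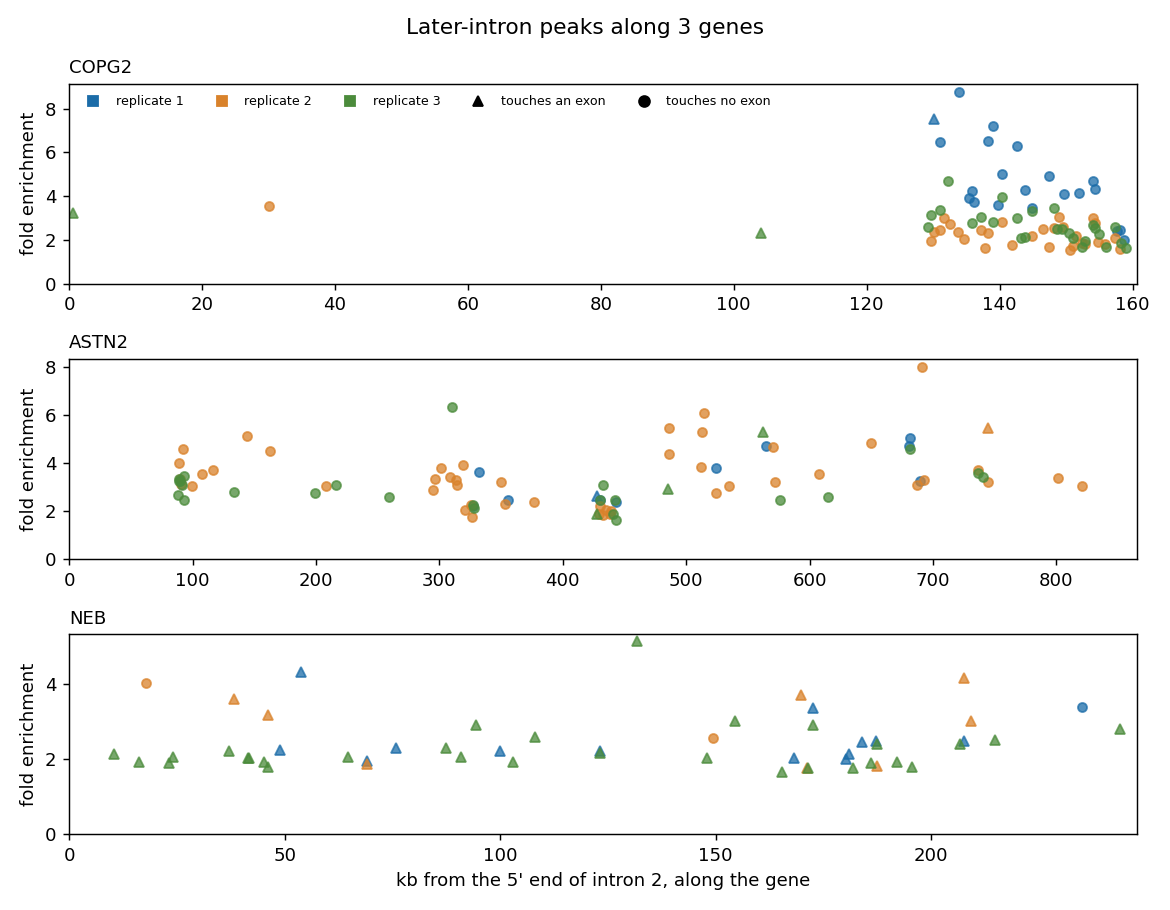
Later-intron peaks along COPG2, ASTN2 and NEB, with the distance in kb from the 5′ end of intron 2 along the gene (horizontal axis) and the fold enrichment by the authors (vertical axis). Colours are the 3 DDX5_IP lists, triangles touch an annotated exon and circles do not. Peaks fill 1 intron in COPG2, are scattered in ASTN2 and sit at exons all along NEB.

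The other named regions included 3 in last introns. In ZNF85, a KRAB zinc finger gene, the region (chr19:20942752-20945174) lay in intron 3 of 3, with fold enrichments of 15.1, 5.46 and 12.5 in replicates 1, 2 and 3. Its best summit, that of replicate 3, lay 4747 bases from the nearer end, and the summits of the lists lay up to 1050 bases apart. In DBH, which encodes the enzyme that makes noradrenaline from dopamine, the region lay in intron 11 of 11 (chr9:133657515-133657943) with fold enrichments of 5.21, 3.96 and 8.40. PSMB7, the gene of a catalytic subunit of the proteasome, had regions in intron 7 of 7, with 3.06, 3.21 and 4.73, and in intron 6, where the higher-ranked region had 3.96, 2.84 and 3.05 and the other 2.81, 2.57 and 2.47. The summits of the latter lay within 18 bases of each other.

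The remaining named regions lay in SLC38A10, INPP5A and TNS3. SLC38A10, an amino acid transporter gene, had a region in intron 14 of 15 with fold enrichments of 6.32, 8.98 and 5.81. INPP5A, the gene of an inositol phosphatase, had one in intron 9 of 15 with 5.29, 5.21 and 3.71, and TNS3 one in intron 3 of 30 with 4.86, 5.93 and 7.52. In SLC38A10 replicate 2 was the highest list, and in TNS3 replicate 3 was.

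The fusion partners and DDX5 added little. PAX3, whose DNA-binding part is in the fusion protein, held 1, 3 and 3 later-intron peaks, with best fold enrichments of 3.61, 3.10 and 4.44. FOXO1 and DDX5 held none in any list. For these genes the rule left almost nothing to find, since FOXO1 has 1 later intron with 0.474 kb eligible and the 11 later introns of DDX5 have 0 kb, being covered by exons of other annotated transcripts.

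Of the gene lists, genes that host a microRNA in an intron had a later-intron peak in 5, 12 and 12 of 30 genes in replicates 1, 2 and 3, or 16.7%, 40.0% and 40.0%, against 5.92%, 13.5% and 14.4% of all 17176 genes with a later intron. HUWE1 led them, TLN2, which encodes a talin, held 2, 2 and 8, and MCM7, the replicative helicase gene that hosts the miR-106b cluster, held 2, 1 and 2, all at exons. Intervals of later-intron peaks overlapped an annotated microRNA in 1, 1 and 0 cases (MIR4721 and MIR6747) and a small nucleolar RNA in 1, 2 and 0. Among genes known for retained or detained introns, such as the CLK kinases, 2, 3 and 5 of 35 had a peak and none had one in every list, against 2.81% of all genes with a later intron. RNA abundance was not analysed here, and intron number and length were not matched, so their part in these shares was not tested.

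PAX3-FOXO1 targets and regulators of fusion-positive rhabdomyosarcoma had a later-intron peak in 8, 10 and 12 of 30 genes, with RASSF4 at 1, 2 and 7 peaks and EHMT1 at 1, 2 and 2. Muscle differentiation and sarcomere genes had one in 7, 13 and 13 of 38. Among them the slow troponin T gene TNNT1 held 1, 5 and 4, the calcium release channel gene RYR1 1, 2 and 6 and the tropomyosin gene TPM2 1, 3 and 4. Microprocessor components and protein partners of DDX5 had one in 9, 9 and 16 of 34, with the acetyltransferase genes CREBBP at 1, 4 and 4 and EP300 at 3, 1 and 1, all of which touched an exon. Set only against genes with an exonic summit in the same peak list, the shares were 31.8%, 42.9% and 45.8% of 22, 21 and 24 genes for the rhabdomyosarcoma list. They were 37.5%, 60.0% and 52.2% of 16, 20 and 23 for the muscle list and 30.0%, 32.1% and 51.6% of 30, 28 and 31 for the DDX5 partners. The microRNA hosts had 27.8%, 52.6% and 52.2% of 18, 19 and 23, and the detained-intron list 8.33%, 7.14% and 20.0% of 12, 14 and 25. Among all such genes the shares were 14.6%, 29.0% and 27.8%. These gene numbers are small, and intron number and length were not matched here either.

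The bases around the summits resembled the introns that held them. GC content of the 101 bases centred on the summit averaged 44.02%, 40.7% and 40.7%, against 43.5%, 41.6% and 41.6% in the whole host intron, a difference of −0.402 percentage points ± 0.839 (SD, n = 3) with replicate 1 on the other side (exact sign-flip permutation test, p = 0.5). Summits in first introns had 49.0%, 41.8% and 46.1% GC and exonic summits 48.3%, 48.6% and 48.8%, above the later-intron summits in every list (exact sign-flip permutation test, p = 0.25 for each). The pattern of 4 runs of at least 3 G spaced by up to 7 bases, which can fold into a G-quadruplex, was searched on both strands. It was found in 0.763%, 0.257% and 0.641% of windows of peaks that touched no exon and in 2.66%, 2.35% and 1.41% of those that touched one, against 0.817% of windows of the same length along the later introns of the genes with peaks. Windows at exon borders also hold exon bases, so that background is not their like. Exonic windows held the pattern in 1.55%, 2.01% and 1.32% and first-intron windows in 3.69%, 0.586% and 1.83%.

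The dinucleotide repeat ACACAC, searched on both strands, was found in 13.9%, 7.24% and 6.88% of the windows of peaks that touched no exon, against 5.70% of windows along the later introns of genes with peaks and 12.4%, 7.16% and 7.24% of first-intron windows. The excess was mainly in replicate 1, where 90 windows with an assigned intron came from 68 genes with at most 6 in 1 gene. This word was picked after all words of 6 bases had been ranked in these same peaks, and it led in replicate 1 alone, so its share is a description. Peaks that touched an exon held it in 6.35%, 7.06% and 6.26%.

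Median fold enrichments of later-intron peaks were lower than those of first-intron peaks, at 2.89, 3.40 and 3.07 against 3.18, 3.47 and 3.25, a difference of −0.174 ± 0.106 (SD, n = 3, below 0 in 3 of 3 lists, exact sign-flip permutation test, p = 0.25). Without the peaks that touch an exon, in both classes, the difference was 0.0222 ± 0.032 (SD, n = 3), and with fold enrichments of at least 4 it was −0.0168 ± 0.161 (SD, n = 3), below 0 in 2 of 3 lists. Against exonic peaks, at 2.56, 2.92 and 2.84, later-intron peaks were higher in 3 of 3 lists by 0.35 ± 0.127 (SD, n = 3, exact sign-flip permutation test, p = 0.25), while their −log10 q was lower, with medians of 3.93, 4.53 and 4.49 against 4.57, 5.62 and 5.74. After Benjamini-Hochberg adjustment no p of the 7 main comparisons was below 0.35, and none of the 34 added ones was below 0.327.

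The labelled cell type was checked on exonic summits. MYOD1, MYOG, DES, MYCN, FGFR4, CDH15, CHRNA1, PAX3 and FOXO1, markers of fusion-positive rhabdomyosarcoma with muscle character, had 1 or more in every list, and TFAP2B had 0 in each. Of markers of other cell types PTPRC, EPCAM and ALB had 0 in every list, and the endothelial marker PECAM1 had 1, 0 and 1.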

How the data were processed

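Nuclear RNA that came down with DDX5 was sequenced, and 1 peak list per DDX5_IP sample was used. The submitters' processing notes name STAR 2.6.1d, MACS2 2.2.7.1, SAMtools 1.10, cutadapt 1.11, FastQC 0.11.8, bcl2fastq 2.20 and the build GRCh38/hg38, without parameters or the control of the peak calls. The authors gave each summit a fold enrichment, a ratio to the caller's background. The deposited p-value and q-value are given as −log10. The score the authors deposited was left unused. The deposited summit offset, another column of the lists, gave the summit position. These values were used only to describe or rank peaks of the same list.

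Summits of 1 interval were counted as 1 peak, taken at the highest −log10 q, on the main chromosomes. Introns came from the Ensembl-canonical protein-coding transcripts of GENCODE version 44, and exons from all its genes. The expectation within genes was the mean, over peaks in 1 intron only, of the share of the gene's eligible later-intron bases in a class. Lists were compared by exact sign-flip permutation (two-sided) of 3 values (Python 3.11.15, numpy 2.4.6, pandas 2.3.3, pysam 0.24.0, matplotlib 3.10.9), tested on simulated data. The labels call the samples biological replicates and do not say whether they were separate cultures, so p-values speak only of these lists. When all 3 values had the same sign, the sign-flip permutation p was 0.25 whatever their spread. Replicate support was counted among the same 3 lists, so its 3 values are not independent of each other.

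The 12 regions and 10 genes named first rank highest by mean −log10 q percentile and by mean share of later-intron peaks, among those in every list. PAX3, FOXO1, DDX5 and up to 4 genes of each list were named besides, and COPG2IT1 and the sequences at exon borders were added after the data were seen. The members, the 5 gene lists and the rules were chosen with earlier results of these data known. Alternatives covered stricter peaks, equal list lengths, other overlaps, other expectations and each replicate left out. The split by contact to an exon, the position within introns, the ACACAC search and the 34 added comparisons were made after the data were seen. Repeat content was not analysed. A few items that the naming rules took are not reported here.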

Additional observations from a re-analysis of the deposited data

How the results depend on the processing

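Of 80 alternative values of the 7 tested comparisons, 71 kept their direction. None can pass the threshold with 3 lists, so this says nothing about significance. The difference in replicate support between later-intron and first-intron peaks turned to −1.30 percentage points with q under 1e-05, to −4.36 with fold enrichments of at least 4 and to −0.236 without peaks that touch an exon, and ranged from −1.68 to 10.2 with each replicate left out. With a replicate left out, support meant contact to the only other list left. The GC difference turned to 0.118 percentage points when peaks whose fold and p recur in at least 10 peaks of the list were dropped. The log2 ratio for introns under 1 kb turned to −0.92 and the difference in median fold enrichment to first-intron peaks to 0.0222 without peaks that touch an exon. The log2 ratio of last introns turned to −0.0165 in genes with an exonic summit and to −0.0231 in peaks that touch an exon, the second an alternative chosen after seeing the data. The cause was not tested for any of these groups, though the turn for introns under 1 kb follows in part from the split itself. Other values moved by over 1.5 times in the same direction. When peaks whose fold and p recur were dropped, the share in later introns was 6.67%, the log2 ratio of last introns 0.45, the difference in support to first-intron peaks 3.17 percentage points and the fold difference −0.296. Without peaks that touch an exon the share was 8.11%, the last-intron ratio 0.23 and the GC difference −0.603. Expected over the later introns of all genes, the ratio was 0.09 for last introns and 2.53 for introns under 1 kb. With fold enrichments of at least 4 the difference in support to exonic peaks was −10.8, the GC difference −0.771 and the fold difference −0.0168. Support to exonic and first-intron peaks differed by −12.6 and 0.401 with reciprocal overlap of 50% and by −16.7 and 0.157 with summits within 100 bp, and equal list lengths gave 0.0461 to first-intron peaks. In peaks that touch an exon alone, support differed by 10.8 to first-intron and −17.6 to exonic peaks, GC by −0.016 and fold by −0.384. With each replicate left out, the share in later introns ranged from 9.49% to 15.8%, the log2 ratio of last introns from 0.10 to 0.17, that of introns under 1 kb from 0.95 to 1.34 and that of summits near intron ends from 2.32 to 2.94. The difference in support to exonic peaks, again as contact to the only other list left, ranged from −39.02 to −20.5 percentage points. The GC difference ranged from −0.885 to −0.14 and the fold difference from −0.226 to −0.12. Without exon-touching peaks the log2 ratio for summits near intron ends was −1.53 ± 0.68 (SD, n = 3), below 0 in every list. That value is an added comparison outside the 80 alternatives, and the split itself lowers it. No paired analysis was possible because the INPUT samples that share replicate numbers with the DDX5_IP samples were not analysed here. The depth of the lists is unknown and limits how many weak intronic peaks each could hold.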
